A study of Zea mays with 2 samples.

Results

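Genes of the anthocyanin and flavonoid pathway and their regulators were examined in stems of the maize dwarf mutant D11 and of its wild type (WT). Members were taken by name. A maize probe set was kept when it was paired with 1 gene whose symbol or synonym was among 19 names of pathway enzymes, of a vacuolar transporter and of regulators. The rule found 10 probe sets for 5 genes, out of 1452 probe sets for 1108 genes with such a pairing and 17621 maize probe sets in all. The 5 genes were fht1, a2, c1, pl1 and p1. Each was found through a synonym in the RefSeq gene table, and none through the symbol the array annotation gives. For 13 of the 19 names no probe set was paired. These were c2, whp1, chi1, pr1, a1, bz1, mrpa3, mrp3, r1, b1, lc, in1 and pac1, and they are not among the members.

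The D11 sample was total RNA from stems of the dominant dwarf mutant, and the WT sample was total RNA from stems of the inbred line Mo17. Both were taken at tassel emergence without any treatment. D11 arose among F1 plants of a cross between Mo17 and the inbred line HN06 and was then repeatedly backcrossed to Mo17, B73 and W22. The sources used here do not say which of these backgrounds the D11 plants on the array had, so the mutation and remaining differences of background cannot be told apart. Each genotype was measured on 1 Affymetrix Maize Genome Array. No difference below has a replicate check, and no test was made.

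Anthocyanins are the purple and red pigments of maize kernels, leaves, stalks and anthers. Chalcone synthase and chalcone isomerase open the flavonoid branch of phenylpropanoid metabolism, and flavanone 3-hydroxylase passes its products on to dihydroflavonols. Dihydroflavonol reductase, anthocyanidin synthase and a glucosyltransferase complete the pigment, which is then moved into the vacuole. In maize the enzyme genes are switched on together by an R2R3-MYB protein, C1 in the aleurone or Pl1 in the plant body, acting with a bHLH protein of the R1 or B1 family. P1, another R2R3-MYB protein, needs no bHLH partner and directs the synthesis of phlobaphenes, the brick-red pigments of pericarp and cob, and of related flavones. Maize lines carry different alleles at these regulatory loci.

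The signals were MAS5 intensities on a linear scale, scaled per array. The level of background was read from the 23 Tag and TrpnX controls of the array, probe sets designed without a maize target. The brightest of them reached 24.7 on the D11 array and 27.6 on the WT array, with medians of 4.71 and 8.93. A signal no higher than the highest control of its array is called background below. By this measure 70.7% of all maize probe sets were above background in both arrays and 22.4% in neither. The labelled tissue was checked by markers. All 5 probe sets of secondary wall genes, such as the cellulose synthase gene cesa10 with 2603 in D11 and 3579 in WT, were above background in both arrays. None of 5 probe sets for seed storage genes was, nor was the 1 for the anther gene mgs1. In the leaf photosynthesis list 8 of 10 were above background in both arrays, with a summed signal of 6133 in D11 and 6328 in WT. Most of this sum came from the Rubisco small subunit, with 4807 and 4514, which was the 1 member with a log2 ratio above 0 (0.09). The other 9 were for C4 enzymes, most of them for pdk1, and had log2 ratios between -1.83 (pep1) and -0.01. Of them, 3 were at least 2-fold lower in D11. Among these 3, pep1 had a background signal in D11, and 1 pdk1 probe set had one in both arrays. The part of leaf tissue in the values of the pathway genes was not tested.

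Of the 10 probe sets of the pathway, 1 was above background in both arrays, 3 were above it in WT alone, and 6 in neither. None reached the median signal of its array, 190.6 for D11 and 165.4 for WT. Apart from the probe set of a2, the signals of the other 9 ran from 2.53 to 23.2 in D11 and from 0.566 to 34.3 in WT. In both stems the signals of the enzyme gene fht1 and of the MYB regulators were thus at or close to background with these probes. A low array signal does not show that a transcript is absent, and fewer cells with a transcript cannot be told apart from less of it per cell.

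**Figure D1:**
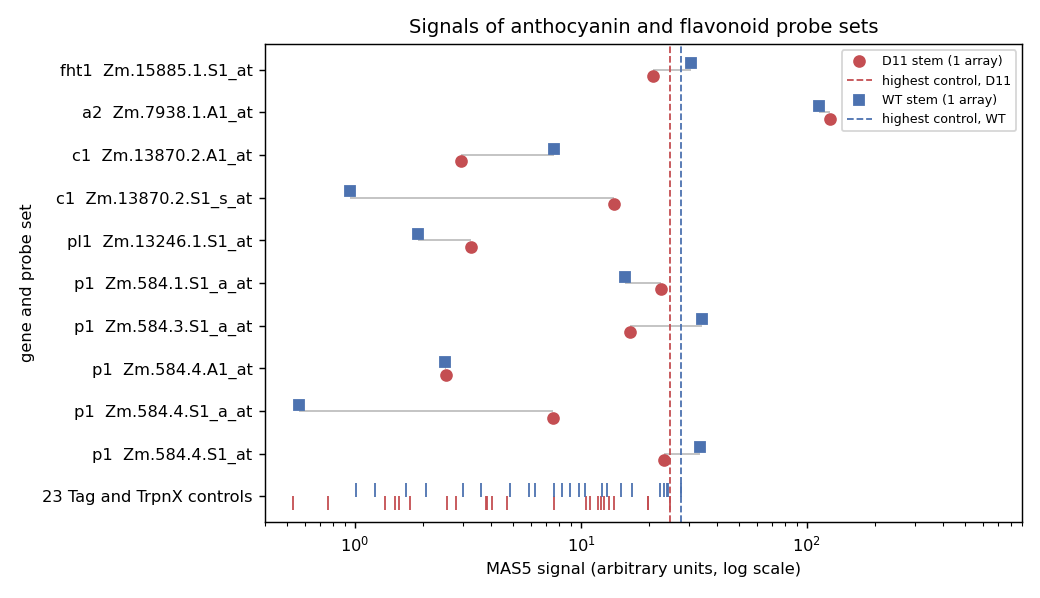
MAS5 signal (arbitrary units, log scale) of the 10 probe sets in the D11 stem (circles) and the WT stem (squares), with 1 array each. The lowest line holds the 23 Tag and TrpnX controls of each array as ticks, and the dashed lines mark the highest of them, 24.7 in D11 and 27.6 in WT. The probe set of a2 lies right of both lines, and 3 others pass the WT line in WT alone.

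The enzyme gene fht1 (LOC542712) encodes flavanone 3-hydroxylase, which makes dihydroflavonols. Its probe set Zm.15885.1.S1_at read 20.8 in D11 and 30.8 in WT. The WT signal was just above the controls and the D11 signal was within their range. By these 2 readings the signal was at least 1.25-fold lower in D11, computed against the highest D11 control. As the WT signal alone passed the controls, no bound in the other direction was possible. This bound is one of signals and gives no minimum change of the transcript. For comparison, the 63 probe sets for bacterial and phage transcripts spiked equally into both samples differed by up to 1.38-fold. The bound for fht1 was smaller than that. Of the 1000 probe sets nearest to it in mean log2 signal, 414 had a larger log2 ratio in either direction.

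The probe set of a2, Zm.7938.1.A1_at (LOC606406), read 126.1 in D11 and 113.5 in WT. It was the 1 member measured above background in both stems. Its quotient was 1.11 on the linear scale, a log2 ratio of 0.15, which is below the SD of 0.20 for the log2 ratios of the spike controls. Among the 1000 probe sets of nearest signal, 808 differed more. The direction was not fixed either. The log2 ratio was -0.05 after centring both arrays on their median, -0.09 with quantile normalization and -0.01 with lowess centring. In maize the locus named A2 is that of anthocyanidin synthase, which turns leucoanthocyanidins into the coloured anthocyanidins. However, 2 genes of the RefSeq table carry the synonym a2, and neither table gives the product of LOC606406. Whether this probe set reads the synthase was not tested.

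The regulator c1 (LOC541757), whose MYB protein activates the pigment genes of the aleurone, had 2 probe sets whose quotients lay on opposite sides of 1. Zm.13870.2.S1_s_at had 14.1 in D11 and 0.947 in WT, a quotient of 14.8. Zm.13870.2.A1_at had 2.96 in D11 and 7.57 in WT, so that the WT signal was 2.56 times the D11 signal. All these signals were background. The 0.947 of the first probe set lay below all 23 controls of the WT array, whose lowest was 1.01, and in D11 3 controls were as bright as its 14.1 or brighter. No fold change can be taken from either probe set. A further probe set of the same transcript cluster, Zm.13870.1.S1_at, was paired with no gene and is no member. It was looked up after the values were seen, and it had 5.07 in D11 and 19.2 in WT, both background. The suffix _s_at marks probes that can bind transcripts of several genes, so the first probe set is also uncertain as a reading of c1 alone.

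The gene pl1 (LOC732799) encodes the counterpart of C1 in the plant body and so is the MYB regulator known for pigment in stalks and leaves. Its probe set Zm.13246.1.S1_at read 3.25 in D11 and 1.91 in WT. In D11 15 of the 23 controls were as bright or brighter, and in WT 20 were. Both signals were background.

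Of the 5 probe sets for p1 (P in the annotation), the phlobaphene regulator, 2 had a WT signal above the controls and none had such a D11 signal. Zm.584.3.S1_a_at had 16.6 in D11 and 34.3 in WT, which gives a bound of at least 1.39-fold lower in D11. Zm.584.4.S1_at had 23.2 and 33.7, with a bound of at least 1.37-fold lower. These bounds are of the size that the spike controls reached. The 23 Tag and TrpnX controls spread more, with an SD of 1.10 for their log2 ratios. Of them, 9 were at least 2-fold lower in D11 and 2 at least 2-fold higher. Among the 1000 probe sets of nearest signal, 192 differed more than Zm.584.3.S1_a_at and 448 more than Zm.584.4.S1_at.

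The other p1 probe sets were at background in both arrays. Zm.584.1.S1_a_at had 22.6 in D11 and 15.7 in WT, and Zm.584.4.A1_at had 2.53 and 2.49. Zm.584.4.S1_a_at had 7.50 in D11 and 0.566 in WT, a quotient of 13.2, and its WT signal was again below all 23 controls of that array. No direction can be taken from these 3. The 2 probe sets above passed the controls in WT alone. As the highest control was 24.7 in D11 and 27.6 in WT, they could only read lower in D11. Their readings therefore add no direction for p1, where 3 quotients were over 1 and 2 under 1. Maize lines can carry several copies of p1 and a closely related gene, p2, so signals of these probes cannot be assigned to 1 copy.

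The study took 5-fold as its threshold and speaks of probes detected in both stems. Detection calls were not used here, so the threshold was applied without a minimum signal, and the counts below are not those of the study's own selection. By this rule 2 of the 10 probe sets were higher in D11 and 0 were lower. They were Zm.13870.2.S1_s_at of c1 and Zm.584.4.S1_a_at of p1. Over all maize probe sets the shares were 2.26% higher and 2.57% lower. At 2-fold, 2 of the 10 were higher and 2 lower, with 9.93% higher and 9.83% lower over all maize probe sets. The 2 that were lower were Zm.13870.2.A1_at of c1 and Zm.584.3.S1_a_at of p1. When every signal under the highest control of its array was raised to that control, 0 of the 10 passed 2-fold or 5-fold in either direction. Most of this was fixed in advance. The 6 probe sets at background in both arrays then held only the 2 floors, and only the probe set of a2 could have passed upward. The shares over all maize probe sets were then 0.789% and 0.153% for 5-fold higher and lower, and 5.45% and 3.13% for 2-fold higher and lower.

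Differences past 5-fold were more frequent among dim probe sets than among bright ones. Of the 1000 probe sets nearest in mean log2 signal, 36.8% differed at least 5-fold around Zm.13870.2.S1_s_at and 33.3% around Zm.584.4.S1_a_at. The c1 and p1 quotients themselves were exceeded in either direction by 45 and 75 of these 1000 probe sets. The share was 2.4% around the brighter probe set of a2. Of all maize probe sets at background in both arrays 13.6% differed at least 5-fold, against 0.891% of those above it in both. Among the 23 controls themselves, 2 differed at least 5-fold, both lower in D11, by up to 7.45-fold. The median log2 ratio of the 10 probe sets was 0.09 and that of all maize probe sets 0.03, and 9 of the 10 values behind the first rest on at least 1 background signal.

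**Figure D2:**
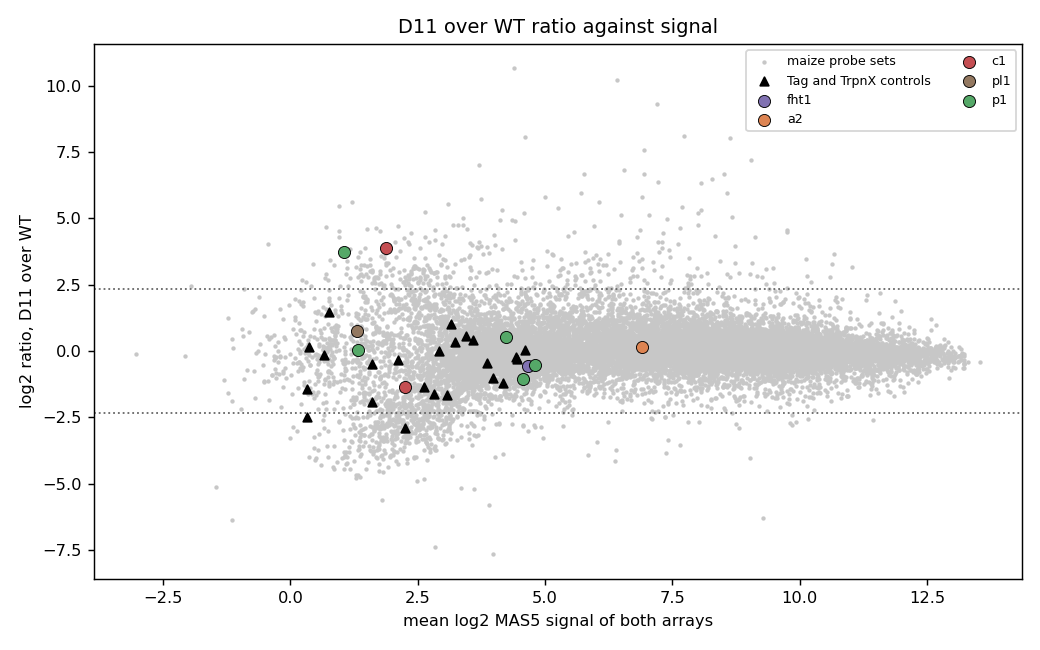
Log2 ratio of D11 over WT (vertical) against the mean log2 signal of both arrays (horizontal) for all 17621 maize probe sets (grey), the 23 Tag and TrpnX controls (triangles) and the 10 probe sets of the pathway (coloured by gene). Dotted lines mark 5-fold. The 2 probe sets beyond the upper line, of c1 and p1, lie at the dim end where grey points spread most, and a2 lies near 0.

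Both large quotients depended on how weak signals were treated. With 24.7 added to every signal, the 25th percentile of both arrays, the log2 ratio of Zm.13870.2.S1_s_at went from 3.89 to 0.60 and that of Zm.584.4.S1_a_at from 3.73 to 0.35. An offset larger than the signals themselves shrinks any ratio between them, whatever its origin. Scaling alone left both log2 ratios between 3.52 and 4.30. The probe set of fht1 and both p1 probe sets above background in WT stayed below 0 in each of the 5 other ways of processing. The log2 ratios were -0.77 to -0.28 for fht1, -1.26 to -0.48 for Zm.584.3.S1_a_at and -0.75 to -0.29 for Zm.584.4.S1_at. An offset cannot change a sign. With weak signals raised to the controls, probe sets above background in WT alone can only read lower in D11. Median centring lowered every log2 ratio by the same amount, so it could not have raised a negative one above 0. So only quantile normalization and lowess centring could have changed the sign. With weak signals raised to the controls, the log2 ratios of these probe sets were -0.32, -0.48 and -0.45.

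**Figure D3:**
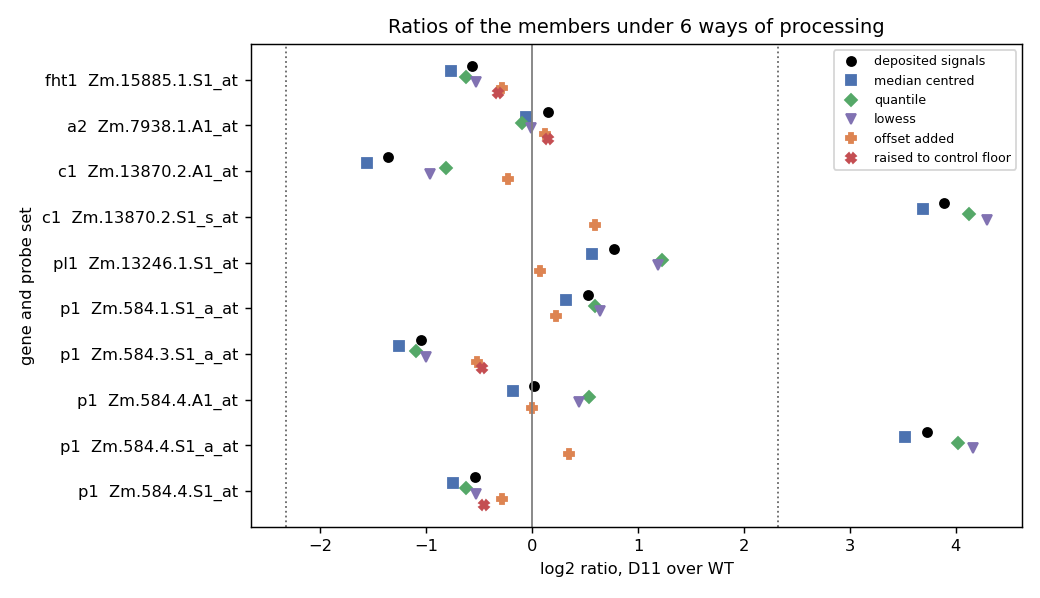
Log2 ratio of D11 over WT for each of the 10 probe sets with the deposited signals and under 5 alternatives. Dotted lines mark 5-fold, and the cross for signals raised to the control floor is drawn only for the 4 probe sets above background in at least 1 array. The ratios of 3.89 for c1 and 3.73 for p1 shrink to 0.60 and 0.35 once an offset is added, and the values of a2 fall on both sides of 0.

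One more probe set bears a name of the R1 family. ARLC is listed in the RefSeq table as a synonym of the gene that also goes by r1 and lc, the bHLH partner of C1 and Pl1. The array annotation gives it under another gene number, so the rule did not take it, and it was looked up after the values were seen. Zm.22.1.S1_a_at had 32.5 in D11 and 20.7 in WT. The D11 signal was above its controls and the WT signal was not, which gives at least 1.18-fold higher in D11. No bound in the other direction was possible for it. The bound too is within the range of the spike controls.

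Other genes around the pathway were taken from a list of 29 names, of which 5 were paired with a probe set, giving 5 probe sets for 4 genes. A name without such a pairing is not shown to lack a probe set on the array. Of these probe sets 4 were above background in both arrays, 0 passed 2-fold upward in D11 and 2 passed it downward, where 9.83% of all maize probe sets passed it downward. The phenylalanine ammonia-lyase gene named PAL1 and pal3 (LOC542258), whose enzyme feeds both lignin and flavonoids, had 7533 in D11 against 9178 in WT, a log2 ratio of -0.28. The stems thus gave a bright signal for the entry of phenylpropanoid metabolism, with a WT signal 1.22 times that of D11. The ABC transporter gene MRP4 or lpa1 (LOC100125659), known for phytic acid in the seed and of the same family as the anthocyanin transporter, had 906.2 and 946.4.

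The 2 probe sets that were lower belong to MYB31 and MYB42, R2R3-MYB proteins known as repressors of lignin genes in maize. The myb31 probe set Zm.13542.1.S1_at (LOC100037768) had 192.1 in D11 and 405.6 in WT, so that WT was 2.11 times D11. The myb42 probe set Zm.9667.1.A1_at (LOC100101513) had 54.6 in D11 and 126.4 in WT, 2.31 times as much. A second myb42 probe set, Zm.13515.1.A1_at, had 31.4 in D11 and 25.6 in WT, the WT signal being background. Both lower readings kept their sign in each of the 5 other ways of processing, with log2 ratios of -1.28 to -0.99 for myb31 and -1.45 to -0.93 for myb42. Of these ways, an offset cannot change a sign, and the control floor changed neither value. Median centring lowered every log2 ratio alike, so only quantile normalization and lowess centring could have changed the sign. Of the 1000 probe sets of nearest signal, 94 differed more than myb31 and 137 more than myb42, and 11.3% and 19.3% differed at least 2-fold.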

How the data were processed

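Stem RNA of D11 and of WT (Mo17) was hybridized to a single Maize Genome Array for each genotype. The deposited table holds linear intensities that the authors made with MAS5, which corrects the background, summarizes the probes of each probe set and scales each array. GeneSpring is named in the methods and Affymetrix Expression Console in the submitters' processing notes, without a version in those notes. No detection calls were used. Of 17734 probe sets, 113 controls were set aside. Precision is limited by the number of arrays.

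The ratio was the D11 signal over the WT signal, as in the study, and no minimum signal was set here. Against a background signal only a bound is given, taking the brightest Tag or TrpnX control of that array in its place. Gene names came from the platform annotation and the RefSeq table of maize B73, which served only for names. Every member is named, by rule. Members and lists were chosen with earlier results of these data known. Neighbours in signal are those closest in mean log2 signal. The alternatives were 3 scalings, the control floor, an offset and 5 subsets. The fold counts were tested on simulated data, with noise below that of dim probe sets, and quantile normalization was run on the same data. The other steps were not tested in this way. Sequences of probes, promoters and proteins were not used here. Python 3.11.15, numpy 2.4.6, pandas 2.3.3 and statsmodels 0.14.6 were used.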

Additional observations from a re-analysis of the deposited data

How the results depend on the processing

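With the deposited signals 2 of 10 probe sets were at least 5-fold higher, 2 at least 2-fold higher and 2 at least 2-fold lower in D11, with a median log2 ratio of 0.09. Under median centring, quantile normalization and lowess centring the count at 5-fold higher was again 2, and that at 2-fold higher was 2, 3 and 3. Both were 0 with the control floor, with the offset, above the controls in at least 1 array (4 probe sets), without probe sets shared between transcripts (6) and with each gene counted once (5). The count at 2-fold lower was 0 with the control floor and the offset, and 1 with quantile normalization, lowess centring and those 3 subsets. The median was 0.22 with quantile normalization and with lowess centring, 0.04 with the offset, -0.12 with median centring, -0.16 with the control floor, which only sets the floors of both arrays against each other and measures nothing, -0.55 above the controls in at least 1 array, -0.26 without shared probe sets and -0.54 with each gene counted once. The median of all maize probe sets was 0.03 with the deposited signals, -0.18 with median centring and -0.02 with quantile normalization. It was 0.02 with lowess centring and with the offset, and -0.12 with the control floor. Median centring thus shifted both medians alike. No probe set of the pathway was at least 5-fold lower under any of these settings. The subsets hold fewer probe sets by construction. Each of those 3 subsets left out Zm.13870.2.S1_s_at and Zm.584.4.S1_a_at, the only probe sets at least 2-fold higher with the deposited signals. Their counts of 0 for higher in D11 were therefore fixed by the choice of probe sets. For the other changes the cause was not tested. No value could be given above the array median or by symbols without synonyms, since no member was left. No paired analysis was possible because each genotype has 1 array.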
